A study of Homo sapiens with 15 samples.

Results

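The 10 genes described here encode parts of the transforming growth factor beta (TGF-beta) pathway and 2 genes read downstream of it. They were taken by symbol from the 43388 genes counted in each RNA-seq library: the ligands TGFB1 and TGFB2, the receptors TGFBR1 and TGFBR2, the receptor-regulated SMADs SMAD2 and SMAD3, the inhibitory SMADs SMAD6 and SMAD7, the TGF-beta-induced matrix protein TGFBI and the transcription factor ATOH8. All 10 passed the filter on low counts. The list names genes of the pathway and sets no threshold on their values, but it was drawn up with earlier results of these data known. A549 is an established human lung adenocarcinoma line with alveolar epithelial features, labelled here as wild type. Cells received the vitamin A metabolite ATRA (all-trans retinoic acid) at 1e-05 mM or its ethanol vehicle for a day. They were then held for 72 hours in 95% O2, called hyperoxia, or in 21% O2, called normoxia. At each oxygen level there were 3 libraries with ATRA, 2 with vehicle and 2 labelled with the oxygen level alone, called untreated. The labels do not say whether replicates came from separate cultures, so p-values measure only the spread between these libraries. Because RNA was taken from whole cultures, fewer cells expressing a gene and less RNA per cell cannot be told apart.

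TGF-beta ligands are secreted in a latent form and, once released, bring together the type II receptor TGFBR2 and the type I receptor TGFBR1, which phosphorylates SMAD2 and SMAD3. These join SMAD4 and enter the nucleus, where they act on target genes with other factors, while SMAD7 and SMAD6 are induced as feedback inhibitors, SMAD7 of TGF-beta and BMP receptors and SMAD6 mainly of BMP receptors. In lung epithelium the pathway is known for its part in branching and alveolar development, growth arrest, matrix production and fibrosis.

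Between 2642377 and 5605072 reads per library fell on genes, so that 3 counts corresponded to 0.535 to 1.14 CPM (the counts after correction for library size). Such limits cover counting error only. The first untreated hyperoxia library stood apart, with 12657 genes detected against 16465 to 20108 in the other 13, and results that rest on it are given with and without it. Summed epithelial markers (KRT8, KRT18, KRT19, EPCAM and CDH1) were at 1665 to 4159 CPM in the 7 hyperoxia libraries and 5562 to 9287 CPM in the 7 normoxia libraries, without overlap. Most of this sum came from KRT8 (4275 to 23997 counts) and KRT18 (1890 to 13510 counts). KRT19 had at most 539 counts, CDH1 at most 354 and EPCAM at most 24, with EPCAM at 0 in 3 libraries. Fibroblast markers summed to at most 4.16 CPM and endothelial markers to at most 6.08 CPM, with VWF at 0 throughout. The leukocyte list summed to 59.7 to 105 CPM in hyperoxia and 18.0 to 33.2 CPM in normoxia, almost wholly through CD68, which other cells also use. CD3E was at 0 and PTPRC had at most 1 count in any library. The part of the lower epithelial sum, mostly of KRT8 and KRT18, and of the higher CD68 levels in the oxygen results below was not tested.

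Hyperoxia was compared with normoxia in 3 settings that share no library. In the vehicle libraries TGFB1, SMAD3 and SMAD7 rose and SMAD2 and SMAD6 fell, 5 of the 10 genes, where 17.5% of all genes tested were called. With ATRA, TGFB1, SMAD3, SMAD7 and ATOH8 rose and SMAD2 and SMAD6 fell, 6 of 10 against 22.7% of all genes. In the untreated libraries SMAD3, SMAD7 and ATOH8 rose and SMAD2 and SMAD6 fell, 5 of 10 against 15.2% of all genes. A call here is an adjusted p under 0.05, by the quasi-likelihood method of edgeR, adjusted after Benjamini and Hochberg across the 14957 genes tested (15339 with the untreated libraries) and written below as edgeR adjusted p. The median log2 fold change of the 10 genes was 0.28, 0.20 and 0.42 in these settings, against 0.01, 0.01 and -0.10 over all genes. In the vehicle setting the 2 libraries per group did not overlap for any of the 10 genes, called or not, where 64.5% of all genes did not overlap and 17.5% were called. Without the first untreated hyperoxia library SMAD2 (-0.98), SMAD3 (0.72), SMAD6 (-1.51), SMAD7 (1.33) and ATOH8 (1.84) were still called in the untreated setting by edgeR, at adjusted p from 0.000724 to 0.0438. When only the 4 untreated libraries were fitted, none of the 10 passed, with edgeR adjusted p from 0.0792 to 0.385 for these 5 genes.

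**Figure D1:**
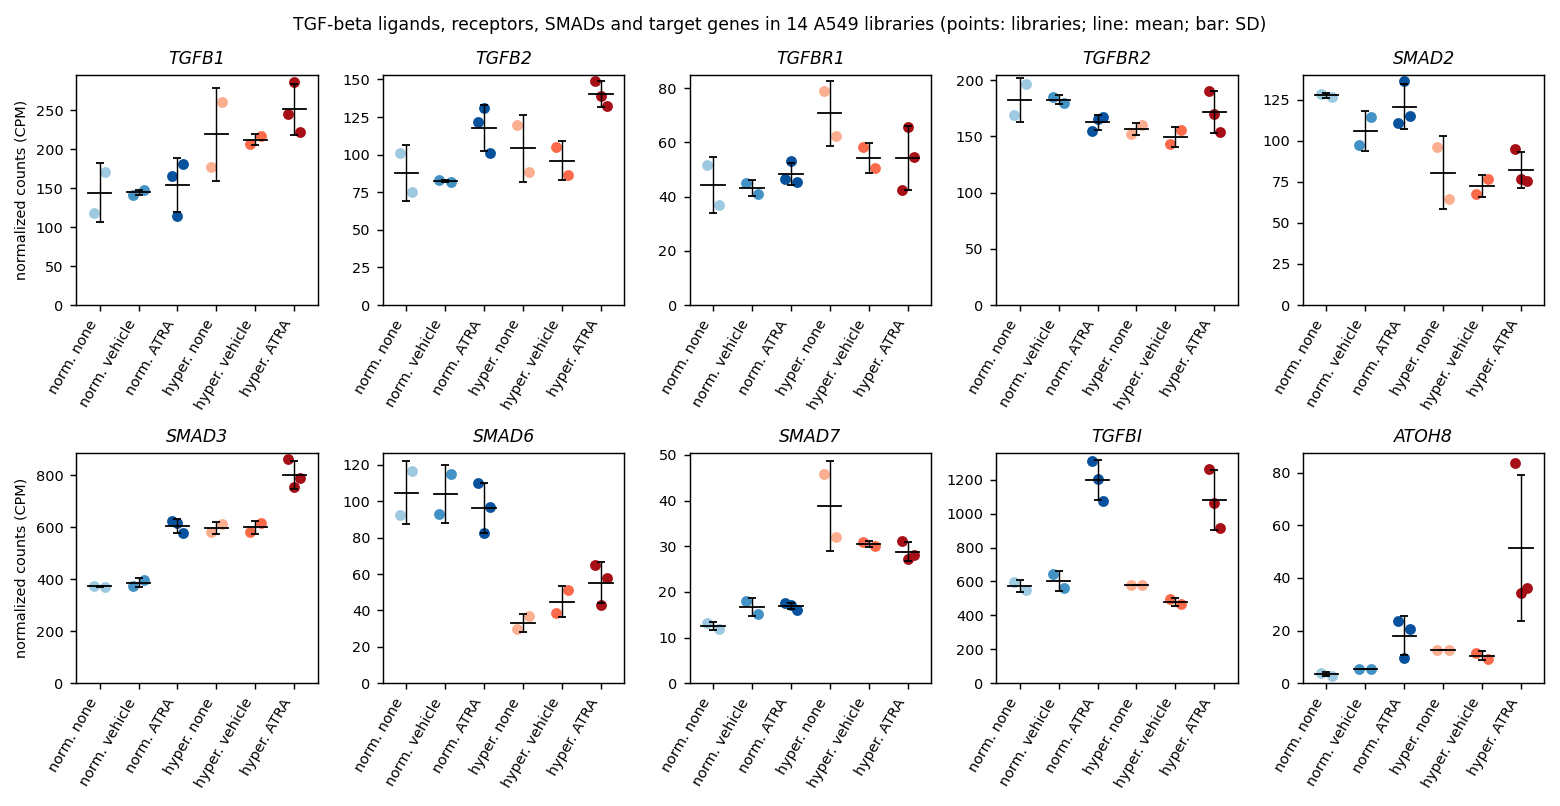
Normalized counts (CPM, vertical axis from 0) of the 10 genes in 14 libraries, grouped along the horizontal axis by oxygen level (norm., 21% O2 and hyper., 95% O2) and treatment (none, vehicle or ATRA). Points are libraries, lines are group means and bars are SD, and SMAD6 lies at 82.7 to 117 CPM in normoxia and 29.8 to 64.9 CPM in hyperoxia.

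Among the ligands, TGFB1 (chromosome 19, 41330323 to 41353922, minus strand, all positions GRCh38.p14), the most widely expressed TGF-beta, was at 142 and 147 CPM in normoxia with vehicle and at 207 and 217 CPM in hyperoxia with vehicle. With ATRA it was at 166, 114 and 182 CPM in normoxia and at 245, 287 and 222 CPM in hyperoxia. The untreated libraries gave 118 and 171 CPM in normoxia and 177 and 261 CPM in hyperoxia. All hyperoxia libraries thus lay above their normoxia counterparts, and within treatments the untreated pair left the smallest gap. The log2 fold change was 0.55 with vehicle (SE 0.18, edgeR adjusted p = 0.0317), 0.70 with ATRA (SE 0.14, edgeR adjusted p = 0.00115) and 0.60 untreated (SE 0.23, edgeR adjusted p = 0.0900). The vehicle call was lost when any 1 of the 4 vehicle libraries was left out (edgeR adjusted p from 0.129 to 0.215) and with all 14 libraries in the fit (edgeR adjusted p = 0.167). Without the first untreated hyperoxia library the untreated change was 0.85 (edgeR adjusted p = 0.0148) and passed.

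TGFB2 (chromosome 1, 218345336 to 218444619, plus strand) encodes a second ligand of the same receptors. Its levels with vehicle were 83.1 and 81.8 CPM in normoxia and 105 and 86.7 CPM in hyperoxia, and the log2 fold change of 0.21 did not pass (95% interval -0.12 to 0.55, edgeR adjusted p = 0.431). ATRA libraries were higher at both oxygen levels, at 122, 131 and 101 CPM in normoxia and 149, 139 and 132 CPM in hyperoxia. That is a log2 difference from vehicle of 0.52 in normoxia (SE 0.15, edgeR adjusted p = 0.120) and 0.56 in hyperoxia (SE 0.15, edgeR adjusted p = 0.0505), with no overlap in either case and no call. DESeq2 did call it in hyperoxia (adjusted p = 0.0173), as did edgeR without the filter on low counts (adjusted p = 0.0357). TGFB2 shares its position with the antisense gene TGFB2-AS1, which had 7.2% of its count, and with TGFB2-OT1 on the same strand, which had 14.7%. How reads in such regions were assigned is not given in the sources used here.

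Neither receptor passed in any setting. TGFBR2 (chromosome 3, 30606356 to 30694142, plus strand), the ligand-binding type II receptor, was at 185 and 180 CPM in normoxia and 143 and 156 CPM in hyperoxia with vehicle, a log2 fold change of -0.28 (95% interval -0.58 to 0.01, edgeR adjusted p = 0.188). With ATRA the 3 normoxia libraries at 155, 165 and 167 CPM overlapped the 3 hyperoxia libraries at 191, 170 and 154 CPM, and the change was 0.08 (95% interval -0.16 to 0.32, edgeR adjusted p = 0.673). Untreated libraries were at 169 and 196 CPM in normoxia and 152 and 160 CPM in hyperoxia. TGFBR1 (chromosome 9, 99103647 to 99154192, plus strand), the type I receptor kinase, was at 45.2 and 41.0 CPM in normoxia and 58.3 and 50.5 CPM in hyperoxia with vehicle. Its log2 fold change was 0.34 with vehicle (95% interval -0.11 to 0.79, edgeR adjusted p = 0.331) and 0.16 with ATRA (95% interval -0.21 to 0.52, edgeR adjusted p = 0.579). The largest TGFBR1 difference was in the untreated libraries, 51.7 and 36.9 CPM against 79.1 and 62.2 CPM. The log2 fold change there was 0.67 (SE 0.24, edgeR adjusted p = 0.0722). It was 0.48 without the first untreated hyperoxia library. Without the second it was 0.775, a fit in which the library with few genes detected stood alone for untreated hyperoxia.

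The receptor-regulated SMADs moved in opposite directions with oxygen. SMAD3 (chromosome 15, 67065602 to 67195169, plus strand), which binds DNA directly, was at 374 and 398 CPM in normoxia and 583 and 618 CPM in hyperoxia with vehicle, and at 375 and 371 CPM against 581 and 615 CPM in the untreated libraries. With ATRA it was at 625, 615 and 577 CPM in normoxia and 862, 757 and 789 CPM in hyperoxia. The mean in normoxia with ATRA was 606 ± 25.5 CPM (SD, n = 3) and that in hyperoxia with vehicle 600.5 ± 24.6 CPM (SD, n = 2), a difference smaller than either SD and not tested, and hyperoxia with ATRA was highest. The log2 fold change with oxygen was 0.64 with vehicle (SE 0.12, edgeR adjusted p = 0.000867), 0.41 with ATRA (SE 0.10, edgeR adjusted p = 0.00524) and 0.68 untreated (SE 0.11, edgeR adjusted p = 0.000838). These SMAD3 calls held in each fit that left out 1 library.

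SMAD2 (chromosome 18, 47808957 to 47930872, minus strand), whose main isoform does not bind DNA by itself, was at 97.3 and 115 CPM in normoxia and 67.9 and 77.0 CPM in hyperoxia with vehicle. With ATRA the values were 111, 136 and 115 CPM in normoxia and 95.0, 76.5 and 75.5 CPM in hyperoxia, and untreated libraries gave 129 and 126 CPM against 96.5 and 64.8 CPM. No hyperoxia library reached any normoxia library, the closest being 96.5 and 97.3 CPM from different treatments. SMAD2 fell by 0.55 on the log2 scale with vehicle (SE 0.17, edgeR adjusted p = 0.0287), by 0.54 with ATRA (SE 0.14, edgeR adjusted p = 0.00719) and by 0.65 untreated (SE 0.20, edgeR adjusted p = 0.0345). With vehicle the call was lost without either hyperoxia library (edgeR adjusted p = 0.216 and 0.0719), without the second normoxia library (edgeR adjusted p = 0.253) and with all 14 libraries in the fit (edgeR adjusted p = 0.102). The untreated call was lost without the second hyperoxia library (edgeR adjusted p = 0.0736) or either normoxia library (edgeR adjusted p = 0.123 and 0.0835).

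The inhibitory SMADs also parted. SMAD6 and SMAD7 fell and rose respectively in each setting, and their promoters, the 250 bases upstream of the RefSeq start, are shown because SMAD proteins are known to act on both genes. SMAD6 (chromosome 15, gene from 66702236 to 66782849, plus strand) is shown from chr15:66701986-66702235 and SMAD7 (chromosome 18, gene from 48919853 to 48950965, minus strand) from chr18:48950966-48951215, each 5′ to 3′ on the strand of its gene. Capitals mark GTCTAGAC, the SMAD-binding palindrome, in SMAD6, and CAGAC, the shorter SMAD-binding element, in SMAD7.
SMAD6: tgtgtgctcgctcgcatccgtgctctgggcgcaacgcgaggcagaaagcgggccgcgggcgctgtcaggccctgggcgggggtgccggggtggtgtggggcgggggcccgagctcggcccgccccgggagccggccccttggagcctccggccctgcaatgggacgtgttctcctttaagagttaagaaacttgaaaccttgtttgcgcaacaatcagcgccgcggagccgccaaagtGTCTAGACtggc
SMAD7: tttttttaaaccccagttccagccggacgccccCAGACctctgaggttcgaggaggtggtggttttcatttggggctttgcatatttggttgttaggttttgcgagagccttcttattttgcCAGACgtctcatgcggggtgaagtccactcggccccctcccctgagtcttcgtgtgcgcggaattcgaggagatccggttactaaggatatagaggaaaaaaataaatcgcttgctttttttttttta
On both strands, GTCTAGAC was found in 0.182% of 35116 RefSeq promoters of the same length, and in SMAD6 alone among the 10 genes, starting 12 bases upstream. CAGAC stood in 38.0% of promoters, SMAD7 (217 and 128 bases upstream) and TGFB2 (243 and 53 bases upstream) among them, and GGCGCC, a GC-rich SMAD motif, in 16.4%, including SMAD2, SMAD3 and TGFBI. These matches describe letters and are no measure of binding. Bases outside these windows were not searched, so a motif missing here may lie elsewhere near the gene. The SMAD6 promoter was 68.0% GC and the SMAD7 promoter 48.0% GC, with a median of 58.0% over all promoters.

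SMAD6 was at 92.8 and 115 CPM in normoxia and 38.7 and 51.0 CPM in hyperoxia with vehicle. With ATRA it was at 110, 82.7 and 96.5 CPM in normoxia and 64.9, 42.9 and 57.8 CPM in hyperoxia, and the untreated libraries were at 92.4 and 117 CPM against 29.8 and 36.8 CPM. The highest hyperoxia value, 64.9 CPM, lay below the lowest normoxia value, 82.7 CPM. SMAD6 fell by 1.21 on the log2 scale with vehicle (SE 0.21, edgeR adjusted p = 0.000250), by 0.79 with ATRA (SE 0.17, edgeR adjusted p = 0.00173) and by 1.66 untreated (SE 0.24, edgeR adjusted p = 0.000239). Of the 10 genes it had the smallest p with oxygen in the vehicle libraries, and its calls held in each fit that left out 1 library.

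SMAD7, which competes for the type I receptor and recruits ubiquitin ligases to it, was at 18.1 and 15.2 CPM in normoxia and 31.0 and 30.0 CPM in hyperoxia with vehicle. The ATRA libraries were at 17.5, 17.2 and 16.1 CPM in normoxia and 31.2, 27.2 and 28.1 CPM in hyperoxia, almost the vehicle values. Untreated libraries gave 13.3 and 11.99 CPM against 45.7 and 31.9 CPM, the higher of these from the library with few genes detected. SMAD7 counts were 50 to 86 per normoxia library and 71 to 229 per hyperoxia library. The log2 fold change was 0.88 with vehicle (SE 0.27, edgeR adjusted p = 0.0243), 0.77 with ATRA (SE 0.22, edgeR adjusted p = 0.0141) and 1.62 untreated (SE 0.30, edgeR adjusted p = 0.00169). The vehicle call was lost without any 1 of the 4 vehicle libraries (edgeR adjusted p from 0.0953 to 0.253), with all 14 libraries (edgeR adjusted p = 0.0793) and without the filter on low counts (edgeR adjusted p = 0.0608), and the ATRA call without the third normoxia library (edgeR adjusted p = 0.0580).

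Ratios of counts within a library do not depend on the scaling of libraries. This comparison was chosen after the values were seen, and it describes the same counts again. SMAD6 had 4.82 to 9.74 counts for each SMAD7 count in the 7 normoxia libraries (median 6.30) and 0.651 to 2.08 in the 7 hyperoxia libraries (median 1.58). SMAD3 had 2.92 to 5.64 counts for each SMAD2 count in normoxia (median 3.84) and 6.02 to 10.4 in hyperoxia (median 9.08). Neither ratio overlapped between oxygen levels, and without the first untreated hyperoxia library the gap would be wider for SMAD3 and unchanged for SMAD6 to SMAD7. The sizes of the ratios reflect transcript length too, and only their shift between libraries is read here.

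**Figure D2:**
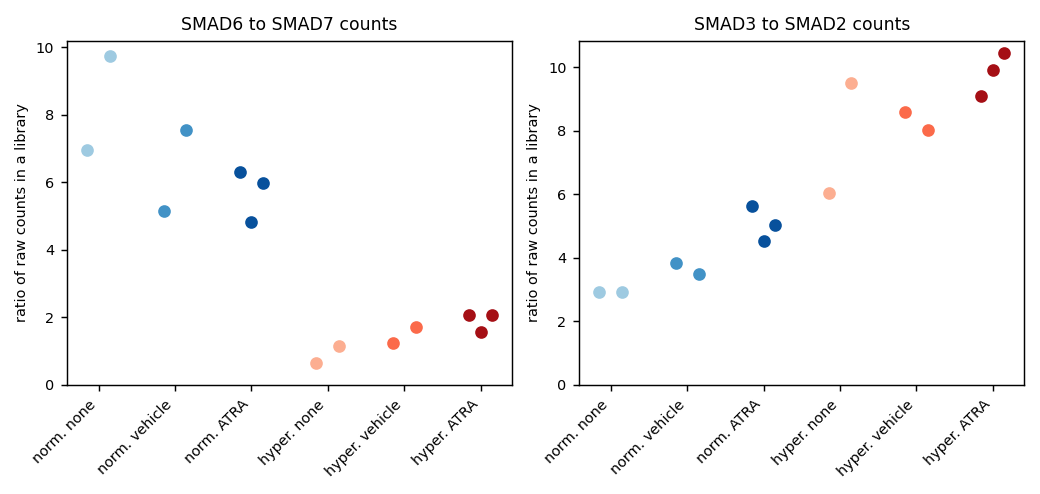
Ratio of raw counts of SMAD6 to SMAD7 (left, vertical axis) and SMAD3 to SMAD2 (right) in each of 14 libraries, by oxygen level and treatment along the horizontal axis, 1 point per library. Hyperoxia libraries lie at or below 2.08 on the left, where normoxia libraries start at 4.82, and at or above 6.02 on the right, where normoxia libraries end at 5.64.

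The ATRA comparison asked which genes differed between ATRA and vehicle at the same oxygen level. TGFBI and ATOH8 rose with ATRA in hyperoxia, 2 of 10 genes against 2.21% of all genes tested, and TGFBI and SMAD3 rose in normoxia, 2 of 10 against 1.25% of all genes. None of the 10 was called lower. Groups did not overlap for 5 of the 10 genes in hyperoxia and 6 in normoxia, against 30.7% and 27.6% of all genes. The median log2 difference of the 10 genes was 0.27 in hyperoxia and 0.18 in normoxia, against 0.00 over all genes. Each ATRA comparison shares its libraries with the oxygen comparisons above.

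TGFBI and ATOH8 promoters are shown because both genes rose with ATRA. They come from chr5:136028738-136028987 and chr2:85753741-85753990, both plus strand, and capitals mark the GGCGCC motif of TGFBI, 111 bases upstream.
TGFBI: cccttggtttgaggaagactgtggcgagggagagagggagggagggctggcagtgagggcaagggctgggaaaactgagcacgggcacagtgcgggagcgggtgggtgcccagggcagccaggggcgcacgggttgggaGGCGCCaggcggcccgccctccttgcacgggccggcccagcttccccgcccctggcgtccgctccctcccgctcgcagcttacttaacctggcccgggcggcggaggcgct
ATOH8: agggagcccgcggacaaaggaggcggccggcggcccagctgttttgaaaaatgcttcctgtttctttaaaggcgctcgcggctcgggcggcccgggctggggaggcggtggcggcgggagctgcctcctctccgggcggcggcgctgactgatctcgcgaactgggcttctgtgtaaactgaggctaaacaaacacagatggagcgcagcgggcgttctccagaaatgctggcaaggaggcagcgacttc
The nuclear receptor half-site AGGTCA, found in 12.1% of promoters on either strand, and the AP-1 motif TGACTCA, found in 4.20%, were in the 250 bases of none of the 10 genes. These windows hold 72.8% GC for TGFBI and 64.4% GC for ATOH8.

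TGFBI (chromosome 5, 136028988 to 136063818, plus strand), a secreted matrix protein first isolated as a TGF-beta-induced gene, was at 645 and 562 CPM in normoxia with vehicle and at 1312, 1204 and 1077 CPM with ATRA. In hyperoxia it was at 495 and 465 CPM with vehicle and at 1262, 1064 and 915 CPM with ATRA. Every ATRA library lay above every other library. TGFBI rose by 0.99 on the log2 scale in normoxia (SE 0.14, edgeR adjusted p = 0.000263) and 1.17 in hyperoxia (SE 0.14, edgeR adjusted p = 2.94e-05), calls that held in every alternative run and in each fit without 1 library. With oxygen it did not pass, at -0.33 with vehicle (95% interval -0.64 to -0.02, edgeR adjusted p = 0.140), -0.15 with ATRA (edgeR adjusted p = 0.412) and 0.02 untreated (598 and 549.1 CPM against 580 and 579 CPM, edgeR adjusted p = 0.956). When only the 4 vehicle libraries were fitted, TGFBI (edgeR adjusted p = 0.00946) and TGFBR2 (edgeR adjusted p = 0.0402) passed as lower in hyperoxia.

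ATOH8 (chromosome 2, 85753991 to 85791383, plus strand), a basic helix-loop-helix factor known as a target of BMP signalling, had the largest fold changes of the 10 genes with ATRA. Normoxia libraries were at 4.09 and 2.88 CPM untreated, 5.56 and 5.50 CPM with vehicle and 23.7, 9.68 and 20.6 CPM with ATRA. Hyperoxia libraries were at 12.6 and 12.7 CPM untreated, 11.7 and 9.36 CPM with vehicle and 83.5, 34.4 and 36.1 CPM with ATRA. Every group with ATRA or with hyperoxia lay above its counterpart without, and hyperoxia with ATRA was highest, although its first library stood well above the other two. ATOH8 counts were 12 to 91 per normoxia library and 39 to 463 per hyperoxia library.

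The ATOH8 log2 difference between ATRA and vehicle was 2.31 in hyperoxia (SE 0.40, edgeR adjusted p = 0.00166), with 1.76 to 2.51 over the fits that left out 1 library, and the call was lost without the second hyperoxia vehicle library (edgeR adjusted p = 0.0716). Against untreated libraries in place of vehicle it was 2.03 and did not pass (edgeR adjusted p = 0.0707). In normoxia it was 1.71 (SE 0.44, edgeR adjusted p = 0.0609), although DESeq2 called it (adjusted p = 0.0124). With oxygen ATOH8 rose by 1.52 with ATRA (SE 0.33, edgeR adjusted p = 0.00180) and 1.84 untreated (SE 0.53, edgeR adjusted p = 0.0293), and was at 0.91 with vehicle (SE 0.48, edgeR adjusted p = 0.223). The untreated call was lost without either normoxia library (edgeR adjusted p = 0.123 and 0.188).

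SMAD3 rose with ATRA by 0.65 on the log2 scale in normoxia (SE 0.12, edgeR adjusted p = 0.00342), a call lost without either vehicle library there (edgeR adjusted p = 0.129 and 0.0589). In hyperoxia the difference was 0.42 (SE 0.11, edgeR adjusted p = 0.0555), which DESeq2 called (adjusted p = 0.000122). The other 6 genes differed little between ATRA and vehicle. TGFB1, TGFBR1, TGFBR2, SMAD2, SMAD6 and SMAD7 lay between -0.08 and 0.31 in hyperoxia and between -0.17 and 0.18 in normoxia, all with an edgeR adjusted p of at least 0.535. For SMAD6 the 95% interval in hyperoxia ran from -0.10 to 0.71 and for SMAD7 from -0.57 to 0.41, so moderate changes in either are not excluded by these libraries.

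Whether ATRA altered the response to oxygen was tested by the interaction term. It was called for 0 of the 10 genes by edgeR, which called 0.14% of all genes, and 0 had an unadjusted p under 0.05 in edgeR. DESeq2 also called 0 of the 10. It gave an adjusted p for this term to only 3088 genes, of which 94 were called. Any of the 10 without one could not be called by DESeq2. The smallest p was that of TGFBR2, at 0.37 on the log2 scale (95% interval -0.01 to 0.74, edgeR adjusted p = 0.701). The intervals reached from -0.14 to 0.98 for SMAD6 and from -0.62 to 1.83 for ATOH8, which these group sizes could not narrow.

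**Figure D3:**
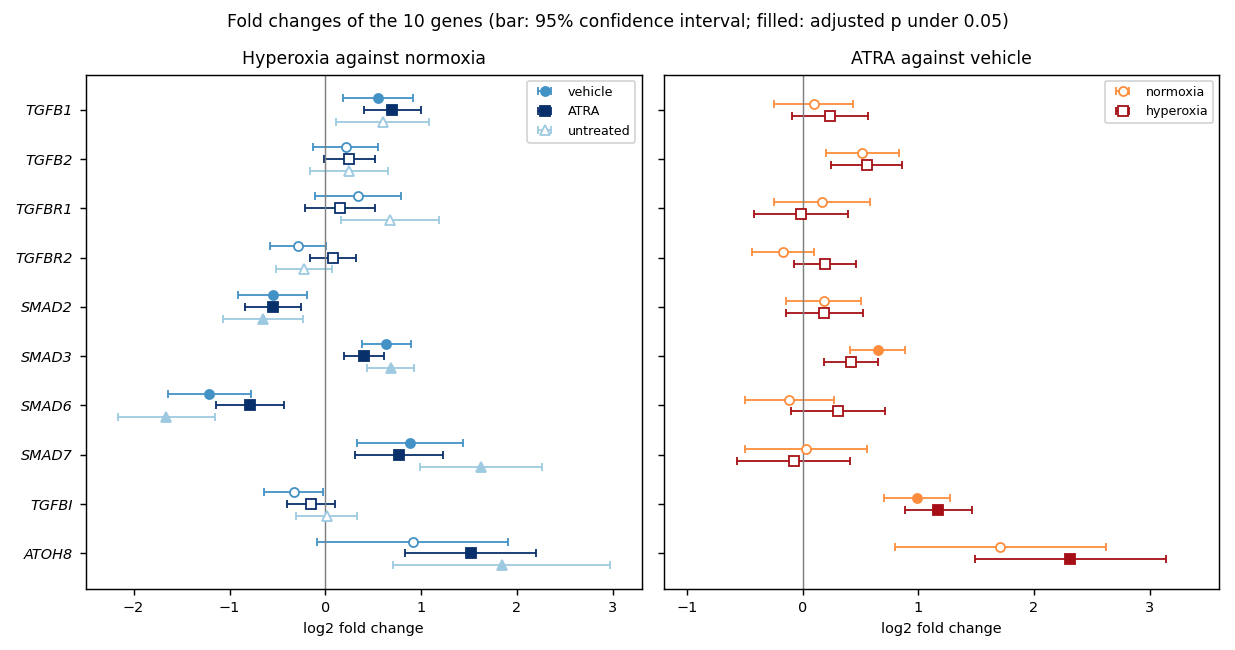
Log2 fold changes (horizontal axis) of the 10 genes for hyperoxia against normoxia by treatment (left) and ATRA against vehicle by oxygen level (right), with 95% confidence intervals as bars. Filled symbols passed an adjusted p of 0.05, with SMAD6 between -1.66 and -0.79 on the left and TGFBI at 0.99 and 1.17 on the right.

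Levels of different genes were compared per kilobase of the GENCODE 44 canonical transcript. In normoxia with vehicle TGFBI was highest at 223 ± 21.7 CPM per kb (SD, n = 2), followed by SMAD3 at 59.8 ± 2.69, TGFB1 at 52.0 ± 1.37, TGFBR2 at 40.3 ± 0.900, SMAD6 at 27.2 ± 4.12 and TGFB2 at 14.04 ± 0.157. TGFBR1 (6.64 ± 0.459), SMAD7 (4.99 ± 0.597), SMAD2 (3.06 ± 0.352) and ATOH8 (0.977 ± 0.00786) were lowest on this scale of level per length, the place of SMAD2 resting on a transcript model of 34626 bases. Each neighbouring pair differed by more than its larger SD. In hyperoxia with vehicle SMAD6 was at 11.7 ± 2.28 CPM per kb, now below TGFB2 at 16.3 ± 2.20, and SMAD7 at 9.13 ± 0.212 and TGFBR1 at 8.38 ± 0.852 differed by less than the larger SD.

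The genes with the most similar pattern were sought for SMAD6 and TGFBI, the genes with the smallest p with oxygen and with ATRA. Over the 14 libraries, log2 CPM of SMAD6 had a Pearson correlation of 0.97 with NREP, PLA2G4A (cytosolic phospholipase A2) and TM4SF4. NREP reached only 8.88 CPM. TGFBI had a correlation of 0.97 with CYP26B1, which degrades retinoic acid, and of 0.96 with EPB41L1 and DHRS3, a retinaldehyde reductase. These are descriptions over libraries that share their groups, and without the first untreated hyperoxia library they were 0.96 to 0.97.

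A wider list of 67 other pathway genes was arranged by role. With vehicle, 21 of the 53 tested were called, 16 higher and 5 lower in hyperoxia, or 39.6% against 17.5% of all genes, and the median log2 fold change was 0.25 against 0.01. With ATRA 21 of 53 were called (17 higher, 4 lower), again 39.6% against 22.7% of all genes, and in untreated libraries 17 of 54 (13 higher, 4 lower), or 31.5% against 15.2%. These counts changed when 1 library was left out. With ATRA the count was 14 without the third normoxia library and 22 without the second hyperoxia library. Over all genes, calls in these fits were 2807 of 14866 and 3036 of 14830, against 3391 of 14957. Leaving out a vehicle or untreated library left 1 library in its group, so counts from those fits are not given in this paragraph. That includes the fit without the first untreated hyperoxia library, on which the untreated count partly rests.

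Of the direct target genes, 6 of the 12 tested rose with vehicle and 2 fell. The matrix genes FN1 and COL1A1 had lower means in hyperoxia than in normoxia with vehicle. FN1 was at 258 against 487 CPM and COL1A1 at 0.839 against 9.19 CPM, the former COL1A1 value being close to 3 counts. ID3, a BMP-responsive inhibitor of differentiation, rose by 1.35 on the log2 scale (SE 0.18, edgeR adjusted p = 1.35e-05) and CCN2, connective tissue growth factor, by 1.13 (SE 0.20, edgeR adjusted p = 0.000336). TGM2, transglutaminase 2, rose by 0.75 (SE 0.17, edgeR adjusted p = 0.00261), a call lost without the first hyperoxia or second normoxia vehicle library (edgeR adjusted p up to 0.0562). With ATRA in place of vehicle 6 rose and 1 fell, and untreated 4 rose and 1 fell. ID3 and CCN2 were called in both of these settings, and TGM2 untreated but not with ATRA.

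Ligands and ligand traps divided, with 2 higher and 2 lower of 11 tested with vehicle, 6 and 2 of 11 with ATRA, and 4 and 1 of 12 untreated. GDF15, a stress-induced member of the ligand family, was at 403 CPM in hyperoxia and 120 CPM in normoxia with vehicle, a log2 fold change of 1.74 (SE 0.18, edgeR adjusted p = 3.81e-07). GREM1, a BMP antagonist, rose by 2.29 with vehicle (SE 0.38, edgeR adjusted p = 0.000180), from 8.08 to 39.7 CPM, and was also called with ATRA. Untreated, GREM1 was at 5.19 and 39.4 CPM in hyperoxia against 2.88 and 8.78 CPM in normoxia, and it was not called. The 5.19 CPM was from the first hyperoxia library, the one with few genes detected, and the missing call rests on that library. In 2 of 4 alternative runs with all libraries of these groups, GREM1 was called untreated. With vehicle again, the other 2 genes called were lower. INHBB, an activin subunit, fell by 1.39 (SE 0.21, edgeR adjusted p = 7.04e-05) and LTBP1, which holds latent TGF-beta in the matrix, by 0.83 (SE 0.22, edgeR adjusted p = 0.0108). INHBB was also called with ATRA and untreated. LTBP1 was called in neither, and its means with ATRA were 71.8 CPM in hyperoxia and 79.5 CPM in normoxia. The LTBP1 call was lost without the first normoxia or second hyperoxia vehicle library (edgeR adjusted p up to 0.142). Among activators, ITGAV (0.49, edgeR adjusted p = 0.0169) and THBS1 (0.50, edgeR adjusted p = 0.0392) were called of 4 tested with vehicle. Both calls were lost without any 1 vehicle library, and that of THBS1 also without the first normoxia ATRA library. ITGAV was called untreated but not with ATRA, and THBS1 with ATRA but not untreated.

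None of the 8 other receptors tested passed with vehicle or with ATRA, the 4 smallest p belonging to TGFBR3 (log2 fold change -0.67), BMPR1B (-0.62), ACVR1 (0.64) and BMPR1A (-0.41), with edgeR adjusted p from 0.124 to 0.294. Untreated, ACVR1 rose, 1 of 8, and was lost without the first hyperoxia library or either normoxia library. Of 7 SMADs and co-factors 3 rose with vehicle: the acetyltransferases CREBBP (0.99, SE 0.19, edgeR adjusted p = 0.000874) and EP300 (0.83, SE 0.15, edgeR adjusted p = 0.000294), which SMADs recruit, and the BMP-regulated SMAD5 (0.61, SE 0.17, edgeR adjusted p = 0.0162). SMAD4, the shared partner, was at 0.49 and did not pass (SE 0.18, edgeR adjusted p = 0.0742). CREBBP and EP300 were also called with ATRA and untreated, and SMAD5 with ATRA but not untreated. Of 11 inhibitors and feedback genes, PMEPA1, which holds SMAD2 and SMAD3 from the receptor, fell by 0.80 with vehicle (SE 0.20, edgeR adjusted p = 0.00748). The ubiquitin ligases NEDD4L (0.61, edgeR adjusted p = 0.0228) and SMURF2 (0.67, edgeR adjusted p = 0.0387) and the phosphatase PPM1A (0.60, edgeR adjusted p = 0.0431) rose. With ATRA 1 of the 11 rose and 1 fell, and untreated 1 rose and 2 fell. Of the inhibitors and feedback genes named, only PPM1A was called with ATRA. Among them only PMEPA1 and SMURF2 were called untreated, both depending on the first hyperoxia library among others. With vehicle, PPM1A was called in 2 of 6 alternative runs, SMURF2 in 4, NEDD4L in 5 and PMEPA1 in 6. SMAD5, NEDD4L and PPM1A lost the call without any 1 vehicle library, and PPM1A also without the third normoxia ATRA library (edgeR adjusted p up to 0.218, 0.214 and 0.383). So did PMEPA1 without the first hyperoxia or second normoxia vehicle library (edgeR adjusted p up to 0.0587), and SMURF2 without either hyperoxia vehicle library, the second normoxia vehicle library, the first normoxia ATRA or the third hyperoxia ATRA library (edgeR adjusted p up to 0.466).

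Between ATRA and vehicle, 2 of the 53 were called in hyperoxia and 1 in normoxia, all higher with ATRA. These shares, 3.77% and 1.89%, were near those of all genes, 2.21% and 1.25%. TGM2 rose by 1.29 in normoxia (SE 0.16, edgeR adjusted p = 5.80e-05) and 0.69 in hyperoxia (SE 0.15, edgeR adjusted p = 0.0144). ID1, another inhibitor of differentiation, rose by 1.03 in hyperoxia (SE 0.16, edgeR adjusted p = 0.000816), from 104 to 213 CPM. The TGM2 call in hyperoxia was lost without either hyperoxia vehicle library (edgeR adjusted p up to 0.297) and the ID1 call without the first (edgeR adjusted p = 0.0640).

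**Figure D4:**
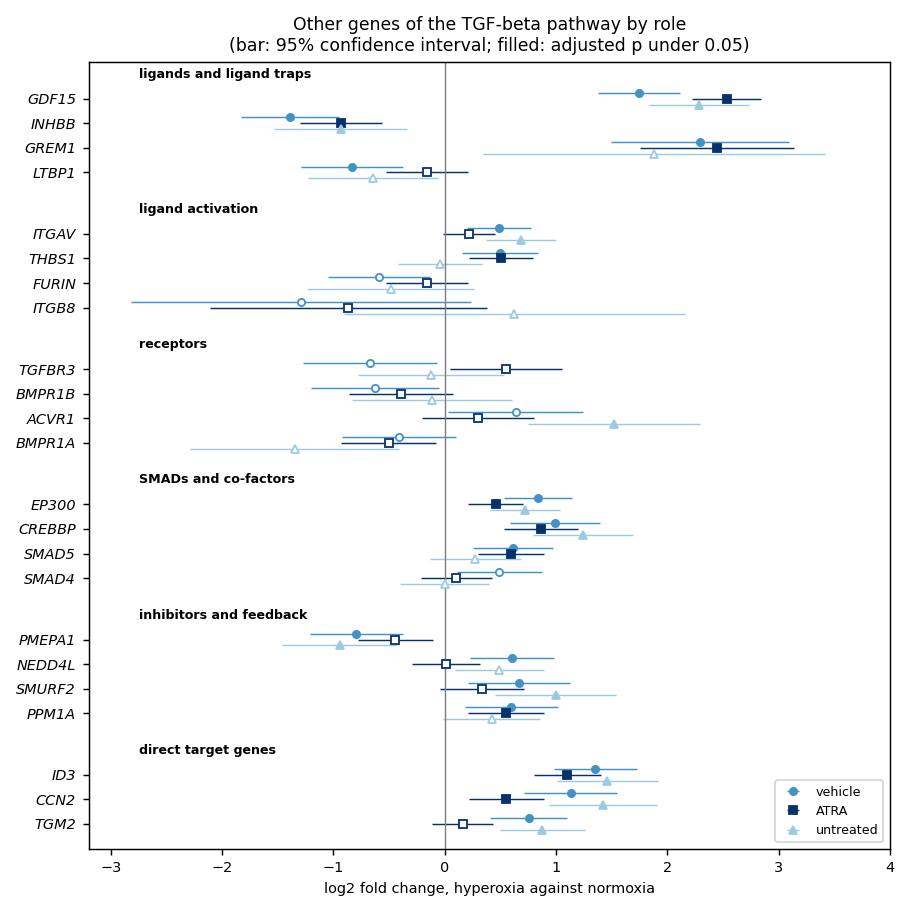
Log2 fold change of hyperoxia against normoxia (horizontal axis) for up to 4 other pathway genes per role, with vehicle, ATRA or no treatment, bars being 95% confidence intervals and filled symbols an adjusted p under 0.05. GDF15 lies at 1.74 and INHBB at -1.39 with vehicle, and no receptor symbol is filled for vehicle or ATRA.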

How the data were processed

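RNA-seq libraries from A549 cells were made with a stranded kit. Per the submitters' processing notes, the authors used Trimmomatic 0.38 for trimming, HISAT2 for alignment (hg38) and HTSeq for counting. The deposited values are raw counts by gene symbol. The annotation and strand setting were not given in the sources used here. Between 75.2% and 78.4% of reads were assigned to no gene and were left out. Differences were tested by edgeR 4.0.16 under R 4.3.3 (filterByExpr, minimum count 10 and total 15, TMM normalization, quasi-likelihood F-test) on 10 libraries in 4 groups. Untreated libraries were compared in a fit of 14 libraries in 6 groups. One library, labelled with a treatment outside these groups, entered no comparison. SE is the log2 fold change over the square root of F. No 2 replicates agreed within sampling noise (chi-square per degree of freedom 3.98 to 31.5). Promoters came from RefSeq (GRCh38.p14), which had all 10 genes, and lengths from GENCODE 44. Alternatives were DESeq2 1.42.0, RLE size factors, no filter, other sets of libraries and leaving out each library.

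The members and lists were chosen with earlier results of these data known. Named were all 10 members, at most 4 pathway genes per role with the smallest p in hyperoxia against normoxia with vehicle, and 3 genes of like pattern for each of 2 members, ranked by Pearson correlation of log2 CPM (prior count 2). Results for some of the genes covered are not given here. ID1, named for the ATRA comparison, and FN1 and COL1A1, named as lower target genes, were chosen after their values were seen. Plots were drawn with matplotlib 3.10.9.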

Additional observations from a re-analysis of the deposited data

How the results depend on the processing

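The number of the 10 genes called (adjusted p under 0.05) depended on the libraries fitted. With all 14 libraries in 6 groups it was 2 in place of 5 for hyperoxia against normoxia with vehicle, and 5 once the first untreated hyperoxia library was left out, a fit added after seeing the data. With only the groups compared it was 0 in place of 5 for the untreated libraries, where 2 libraries per group set the spread alone. For ATRA in hyperoxia it was 4 by DESeq2 in place of 2, and 1 with untreated libraries as the control, with or without the first of them (the second added after seeing the data). Leaving out each library in turn gave 2 to 5 for oxygen with vehicle, 5 to 6 with ATRA, 3 to 6 untreated, 1 to 4 for ATRA in hyperoxia, 1 to 3 for ATRA in normoxia and 0 for the interaction.

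Of the wider pathway list, 12 genes were called in place of 21 with vehicle when 14 libraries were fitted, and 2 in place of 17 in the untreated comparison with only the groups compared. For ATRA in hyperoxia the count of 2 became 0 with 14 libraries, 4 by DESeq2, 5 without the filter on low counts and 0 with untreated controls, with or without the first of them. For ATRA in normoxia the count of 1 became 2 by DESeq2 and 3 without the filter. Leaving out libraries gave 9 to 24 with vehicle, 14 to 22 with ATRA, 9 to 27 untreated, 0 to 5 for ATRA in hyperoxia and 1 to 3 for ATRA in normoxia. Calls over all genes shifted in these fits too, and the cause of the shifts was not tested.

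Over all genes the calls with vehicle numbered 2616, against 1420 with 14 libraries and 4665 with only the groups compared. The untreated comparison gave 2324 and 58, ATRA in hyperoxia 331 (116 with 14 libraries, 480 by DESeq2, 522 without the filter), ATRA in normoxia 187 (70, 275 and 300) and the interaction 21 (4, 94 and 91). Oxygen with ATRA gave 3391, and 1975 with 14 libraries. Against untreated controls ATRA gave 66 calls in hyperoxia and 67 in normoxia.

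The 10 genes had 20 called results over the 6 comparisons. Of 116 alternative values of these, 105 were still called and 11 were not, and of 220 values without 1 library 200 were still called and 20 were not. Among results not called, 9 alternative values and 7 values without 1 library passed, and 3 and 22 had the opposite sign. No called result changed sign. With 2 or 3 libraries a group the size of change that passed varied by gene: SMAD3 passed at 0.41 on the log2 scale, while ATOH8, at low counts, did not at 1.71. No paired analysis was possible because the labels give the groups no shared replicate numbers.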

Other observations

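One library carried the hyperoxia title and, as its treatment, a label of adipogenic differentiation, and was put in no group. Its values, scaled by its own total, were 236 CPM for TGFB1, 88.3 CPM for TGFB2, 44.6 CPM for TGFBR1 and 164 CPM for TGFBR2. SMAD2 was at 84.7 CPM, SMAD3 at 629 CPM, SMAD6 at 56.4 CPM and SMAD7 at 25.6 CPM. TGFBI was at 492 CPM and ATOH8 at 13.4 CPM.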
